A study of Mus musculus with 6 samples.

Results

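Transcripts of the IL-1 and IL-18 receptor family were compared between tumor and spleen in P14 CD8+ T cells. The family was taken as 7 genes chosen by symbol: Il1r1, Il1r2, Il1rl1, Il1rap, Il18r1, Il18rap and Sigirr. Each of the 7 had a row among the 55335 gene rows of the count table. Of these, 6 passed the filter on low counts, and Il1r1 did not. P14 cells carry a transgenic T cell receptor for the GP33-41 peptide. They were given to C57BL/6 mice on day 11 after implantation of B16-GP33-41 cells, a melanoma line that displays this peptide. The tumor group (P14 TIL, 3 libraries) holds donor P14 CD8+ T cells sorted from the tumors. The spleen group (P14 Sp, 3 libraries) holds donor P14 CD8+ T cells sorted from spleens of the same tumor-bearing mice. Strain, age (10 weeks), genotype (P14 TCR transgenic) and sorting are shared by both groups, so no group comes from mice without a tumor. The labels do not say whether a library is 1 mouse or a pool of mice.

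Receptors of this family pass on the alarm cytokines of the IL-1 family. A ligand-binding chain (Il1r1 for IL-1, Il1rl1, also called ST2, for IL-33, Il18r1 for IL-18) pairs with an accessory chain (Il1rap for IL-1 and IL-33, Il18rap for IL-18). The paired TIR domains inside the cell then recruit the adaptor MyD88 and IRAK kinases, which activate NF-kB. Il1r2 binds IL-1 but lacks the signalling domain and acts as a decoy, and Sigirr dampens signalling by other members. In CD8+ T cells, IL-18 together with IL-12 is known to elicit interferon gamma without antigen, and IL-33 is known to support effector CD8+ T cells.

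Tumor P14 cells had far more transcript of the decoy receptor Il1r2 (21.6-fold) and of the IL-33 receptor Il1rl1 (12.0-fold) than spleen P14 cells. The signalling IL-1 receptor Il1r1 was close to undetected in tumor (1 count over 3 libraries) and also low in spleen (22 counts over 3 libraries). The accessory chains Il1rap and Il18rap and the inhibitory receptor Sigirr were lower by small amounts (1.18-fold to 1.41-fold). Il18r1 did not pass the test. Of the 6 tested members, 2 were higher, where 34.8% of all 19783 tested genes were called higher, and 3 were lower, where 35.9% were (quasi-likelihood test of edgeR, p adjusted by Benjamini-Hochberg below 0.05). Calls in either direction covered 70.7% of all genes, so 5 calls among 6 members is near the background. Against a null of a 2-fold change, Il1r2 (adjusted p = 1.3e-08) and Il1rl1 (adjusted p = 1.6e-05) were called, where 5.87% of all genes were called higher, 9.42% lower and 15.3% in either direction. No member was called lower against that null. Il1rl1 passed the low-count filter only through its tumor counts, so its call does not count toward a rise of the family. Only 97 tested genes had a larger log2 fold change than Il1r2, and 153 a larger one than Il1rl1.

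Total counts ranged from 35095261 to 38263483 per library. T cell genes were abundant in both tissues: the 8 of the list fixed for this check (such as Cd3e and Cd8a) summed to between 4040 and 4178 CPM (counts-per-million, each count scaled by its library's total) in tumor and between 4494 and 4541 CPM in spleen. Markers of other cells differed more. The 10 B cell markers summed to 10.7 to 12.8 CPM in tumor and 548 to 565 CPM in spleen, and 10 of 10 were lower in tumor (35.9% over all genes). The 12 macrophage and monocyte markers summed to 41.7 to 43.4 CPM in tumor and 273 to 289 CPM in spleen, and 12 of 12 were lower. The part of such cells in the small falls described here was not tested. In sorted bulk samples, fewer cells of a type and less RNA per cell cannot be told apart. Library codes in the labels share an ending within each tissue. What it marks is not said, and it cannot be told apart from tissue.

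**Figure D1:**
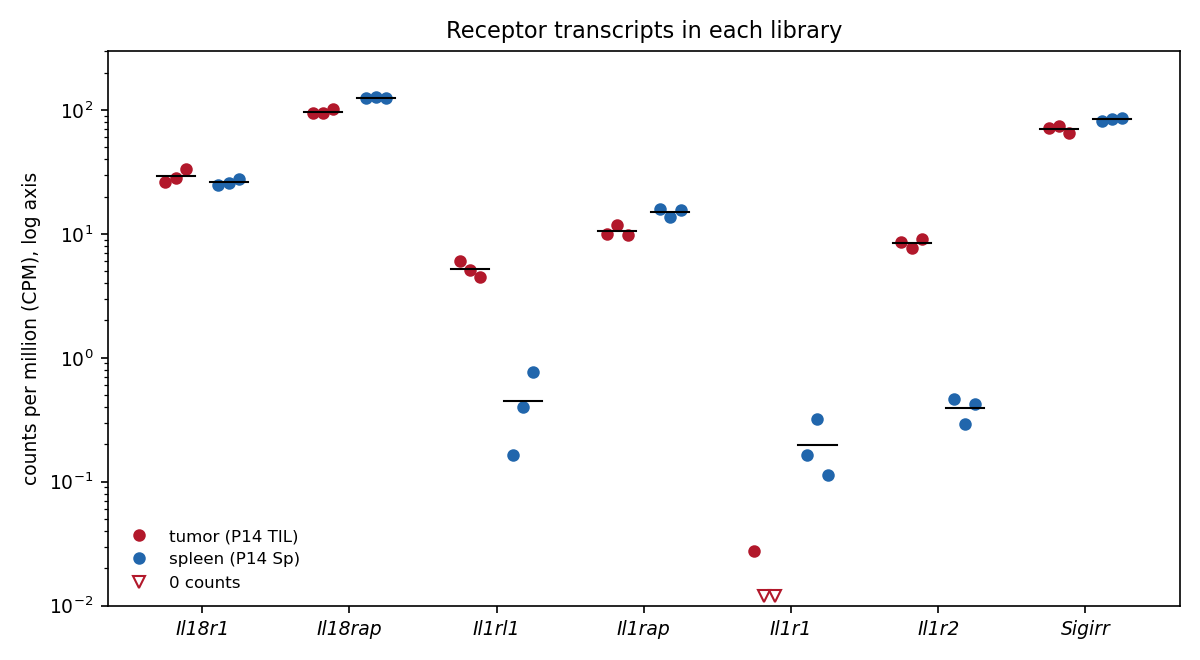
CPM (log axis) of the 7 receptor genes in each library, 3 tumor libraries in red and 3 spleen libraries in blue. Black bars are means, not drawn for Il1r1 in tumor, and open triangles are libraries with 0 counts. Il1r2 and Il1rl1 lie far apart between tissues, while Il18r1 overlaps.

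The decoy receptor gene Il1r2 (ENSMUSG00000026073.13, chromosome 1 at 40074079 to 40125231 in mm10) had 8.53, 7.71 and 9.01 CPM in tumor replicates 1, 2 and 3. It had 0.465, 0.292 and 0.427 CPM in spleen replicates 1, 2 and 3. Every tumor library was thus above every spleen library, and the tumor values lay close together. Tumor libraries averaged 8.41 ± 0.656 CPM and spleen libraries 0.395 ± 0.0909 CPM (SD, n = 3 each). The log2 fold change was 4.43 (SE 0.17, adjusted p = 1.9e-09), with a 95% interval from 4.05 to 4.82. The tumor libraries together held 932 counts and the spleen libraries 43. Neutrophils also express Il1r2. Their 12 markers summed to 0.967 to 1.35 CPM in tumor and to 28.6 to 32.9 CPM in spleen. Of these markers Ngp and Camp had 0 counts in the tumor libraries, and S100a8 had 2 counts in each. Their part in the Il1r2 values was not tested. The antisense gene Gm16894, which overlaps Il1r2 on the other strand, had at most 4 counts in a library.

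The IL-33 receptor gene Il1rl1 (ENSMUSG00000026069.15, chromosome 1 at 40429570 to 40465415) had 6.01, 5.07 and 4.50 CPM in tumor replicates 1, 2 and 3. In spleen replicates 1, 2 and 3 it had 0.164, 0.398 and 0.769 CPM, from 6, 15 and 27 counts. The tissues did not overlap, but the spleen libraries differed among themselves more than for any other tested member (coefficient of variation 68.7%, against 14.6% in tumor). Il1rl1 averaged 5.19 ± 0.759 CPM in tumor against 0.444 ± 0.305 CPM in spleen (SD over 3 libraries each), with a log2 fold change of 3.58 (SE 0.31, adjusted p = 1.1e-06). Without spleen replicate 3 the log2 fold change was 4.21, and without spleen replicate 1 it was 3.19, both still called. The gene makes a membrane receptor and a soluble decoy form from alternative transcripts, and counts per gene do not tell them apart. Mast cells and basophils also express Il1rl1. In their list of 10 markers, 5 of 7 tested genes were lower in tumor (Cpa3 at 0.434 ± 0.0819 against 1.41 ± 0.378 CPM) and 1 was higher, Kit, the stem cell factor receptor (11.6 ± 1.78 against 4.26 ± 0.353 CPM). Over all genes tested, 35.9% were called lower and 34.8% higher. The list summed to 10.3 to 14 CPM in tumor, most of it Kit, and 11.6 to 12.8 CPM in spleen, where Kit was a smaller part. Fcer1a, Tpsb2 and Mcpt4 had 0 counts in tumor and too few in spleen to pass the low-count filter. Ms4a2, of the same list, passed that filter only through its spleen counts.

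The promoters of these 2 genes are shown because they had the large rises. The sequences are RefSeq's for GRCm38.p6, plus strand, from 250 bases before an annotated start and without bases that GENCODE M21 annotates as untranslated exon. Il1rl1 has 2 annotated starts, and counts per gene do not show which was used. Capitals mark matches on either strand to any of 4 motifs. AP-1 was searched as TGANTCA, and the letters for NFAT were GGAAA. Those searched for the GATA factors were, on either strand, GATAA. The E-box, searched as CACGTG, was added after the Il1r2 sequence was seen.
Il1r2, chr1:40085843-40085984: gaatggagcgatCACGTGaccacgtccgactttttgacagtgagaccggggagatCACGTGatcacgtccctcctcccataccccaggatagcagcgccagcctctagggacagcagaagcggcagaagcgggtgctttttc
Il1rl1, upstream start, chr1:40429320-40429569: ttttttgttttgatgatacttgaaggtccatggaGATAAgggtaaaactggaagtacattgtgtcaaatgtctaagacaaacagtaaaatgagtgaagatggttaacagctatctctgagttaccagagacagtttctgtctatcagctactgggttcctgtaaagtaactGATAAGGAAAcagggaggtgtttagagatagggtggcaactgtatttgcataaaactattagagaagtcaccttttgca
Il1rl1, downstream start, chr1:40439379-40439626: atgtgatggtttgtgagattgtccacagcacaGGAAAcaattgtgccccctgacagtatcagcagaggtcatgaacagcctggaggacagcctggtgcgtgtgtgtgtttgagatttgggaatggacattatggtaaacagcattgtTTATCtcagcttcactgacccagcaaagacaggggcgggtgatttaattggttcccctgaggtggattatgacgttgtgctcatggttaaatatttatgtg

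In the 250 bases before its start, Il1r2 held 2 E-box matches, which 6.02% of all 32851 promoter windows of that length contain at least once. It also held 1 GATA match in the part not printed and 1 STAT match (TTCNNNGAA, in 7.02% of windows) that begins at the end of the printed part. This start lies inside the gene, downstream of the first start in GENCODE. The upstream window of Il1rl1 held 2 GATA matches and 1 NFAT match, of which 1 GATA match directly precedes the NFAT match without overlap. The downstream window held 1 of each. GATA matches were present in 22.6% of all windows and NFAT matches in 55.6%. None of the family's 11 windows held an AP-1 match, against 6.75% of all windows, or a match to the NR4A element NBRE (AAAGGTCA), against 1.34%. RefSeq windows were found for 7 of 8 genes looked up (the 7 members and Il1rl2), and that of Sigirr was not among them. A match is only a run of letters and says nothing about binding in these cells.

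The signalling IL-1 receptor gene Il1r1 (ENSMUSG00000026072.12, chromosome 1 at 40225080 to 40317257) had 1, 0 and 0 counts in tumor replicates 1, 2 and 3. It had 6, 12 and 4 counts in spleen replicates 1, 2 and 3. The tissues did not overlap, yet every value was low. A library with 0 counts allows up to 3, which is at most 0.0829 CPM in tumor. The summed share was 22.3-fold lower in tumor (1 against 22 counts, 95% exact binomial interval 3.61 to 921, which covers counting error only). Il1r1 was not tested with the other genes. In tumor P14 cells the decoy Il1r2 was thus measured at 932 counts and its signalling counterpart at 1 count.

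The accessory chain gene Il1rap (ENSMUSG00000022514.14, chromosome 16 at 26581704 to 26730117) is shared by the IL-1 and IL-33 receptors and was lower in tumor, unlike Il1rl1. It had 9.98, 11.7 and 9.78 CPM in tumor replicates 1, 2 and 3, and 15.8, 13.8 and 15.7 CPM in spleen replicates 1, 2 and 3. All spleen libraries were above all tumor libraries. The fall was 1.41-fold, a log2 change of -0.49 with SE 0.10 (adjusted p = 0.00095). The antisense gene Gm20319 overlaps Il1rap and had at most 60 counts in a library.

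The IL-18 receptor differed least in its ligand-binding chain. Il18r1 (ENSMUSG00000026070.15, chromosome 1 at 40465552 to 40500854) had 26.1, 28.2 and 33.6 CPM in tumor replicates 1, 2 and 3, and 24.9, 25.9 and 27.8 CPM in spleen replicates 1, 2 and 3. Tumor replicate 1 lay within the spleen range, tumor replicate 2 just above it and tumor replicate 3 further above. The log2 fold change was 0.19 (SE 0.09, adjusted p = 0.084), with a 95% interval for the fold from 0.992 to 1.31. Without tumor replicate 1 the rise was called (log2 fold change 0.27, adjusted p = 0.014), and without tumor replicate 3 the log2 fold change was 0.10 (adjusted p = 0.21). Only 136 bases separate the end of Il1rl1 from the start of Il18r1 on the same strand.

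Its partner Il18rap (ENSMUSG00000026068.11, chromosome 1 at 40515362 to 40551705) was the member with the most counts in both tissues. It had 95.1, 94.5 and 101 CPM in tumor replicates 1, 2 and 3, and 124, 127 and 124 CPM in spleen replicates 1, 2 and 3. The spleen libraries were all higher, and both groups were tight. Il18rap fell 1.27-fold (log2 fold change -0.34, SE 0.05, adjusted p = 0.00012).

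Sigirr (ENSMUSG00000025494.8, chromosome 7 at 141091175 to 141100572, minus strand), which restrains signalling by IL-1 family and Toll-like receptors, had 70.8, 73.6 and 64.7 CPM in tumor replicates 1, 2 and 3. In spleen replicates 1, 2 and 3 it had 81.6, 83.9 and 86.7 CPM. The tissues did not overlap, and the fall of 1.18-fold was the smallest of the called changes (log2 fold change -0.24, SE 0.07, adjusted p = 0.0074). With the 3 spleen libraries pooled, which was tried only after seeing the data, it was not called (adjusted p = 0.11). CPM of the tissues did not overlap for 5 of the 6 tested members, where 74.5% of all genes tested did not.

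**Figure D2:**
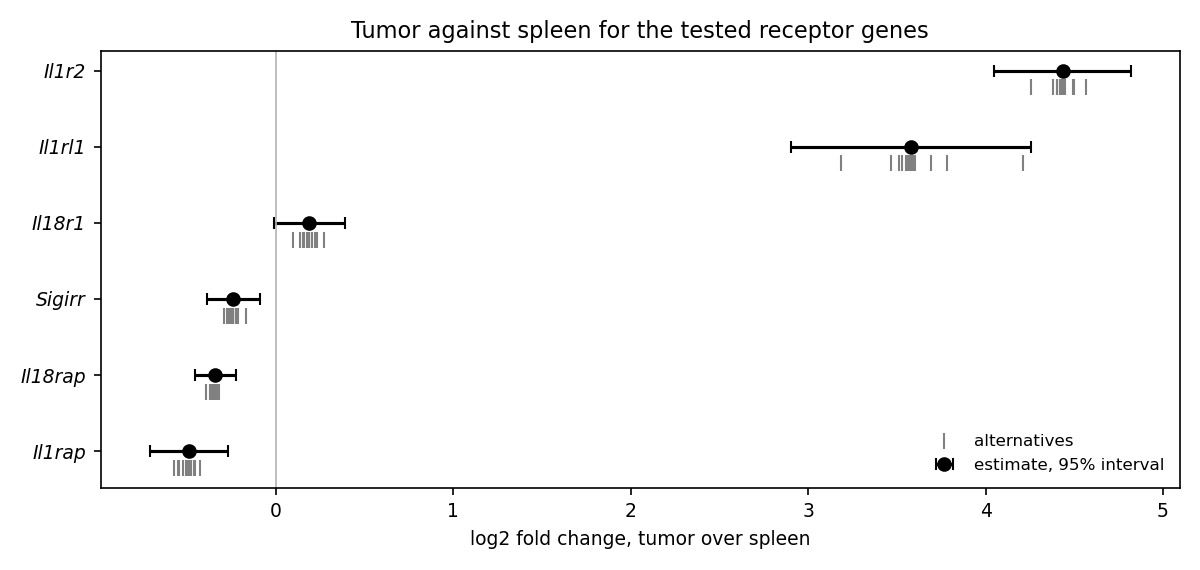
Log2 fold change, tumor over spleen, of the 6 tested receptor genes. Dots and bars are the estimate and its 95% interval from edgeR, and grey ticks are the alternative fits. Il1r2 (4.43) and Il1rl1 (3.58) stand apart from the other 4 genes, whose estimates lie between -0.49 and 0.19.

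Levels of different genes were set side by side per kilobase of annotated exon (RPKM, computed from the counts). In tumor the order was Sigirr (22.9 ± 1.51 RPKM), Il18rap (14.3 ± 0.523), Il18r1 (6.08 ± 0.806), Il1r2 (4.41 ± 0.344), Il1rap (0.923 ± 0.0933), Il1rl1 (0.753 ± 0.110) and Il1r1 (SD, n = 3). Il1rap and Il1rl1 overlapped in tumor, and the other neighbours in that order did not. In spleen Sigirr (27.6 ± 0.848 RPKM), Il18rap (18.5 ± 0.257) and Il18r1 (5.44 ± 0.297) again led. Il1rap (1.33 ± 0.1 RPKM) came before Il1r2 (0.207 ± 0.0476), Il1rl1 (0.0644 ± 0.0443) and Il1r1 (0.0313 ± 0.0168) there, and only Il1rl1 and Il1r1 overlapped. The IL-18 receptor chains and Sigirr thus had the 3 highest levels per length in both tissues. Il1r2 stood above Il1rap in tumor and below it in spleen. These lengths join the exons of all transcripts of a gene, so a gene with long rare exons reads too low.

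Ratios of counts within a library showed how the balance between members differed, free of the scaling between libraries. The Il1r2 to Il1rap ratio was 30.1-fold higher in tumor, though Il1r2 stayed below Il1rap in counts in every library. Il1r2 counts were 0.854, 0.658 and 0.921 of those of Il1rap in tumor replicates 1, 2 and 3, and 0.0295, 0.0212 and 0.0273 in spleen replicates 1, 2 and 3. The Il1rl1 to Il1rap ratio was 19.3-fold higher in tumor. For Il1r2 to Il1r1 the difference was 7.72 on the log2 scale with 0.5 counts added to each gene, and it rests on at most 1 count of Il1r1 per tumor library. The Il18r1 to Il18rap ratio was 0.274, 0.298 and 0.333 in tumor and 0.200, 0.203 and 0.224 in spleen, 1.44-fold higher in tumor. Sigirr to Il18r1 was 1.34-fold lower in tumor. None of the 5 ratios overlapped between tissues. Each had a two-sided exact permutation p of 0.1 (0.1 after Benjamini-Hochberg adjustment over the 5), the smallest that 3 against 3 libraries can give.

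**Figure D3:**
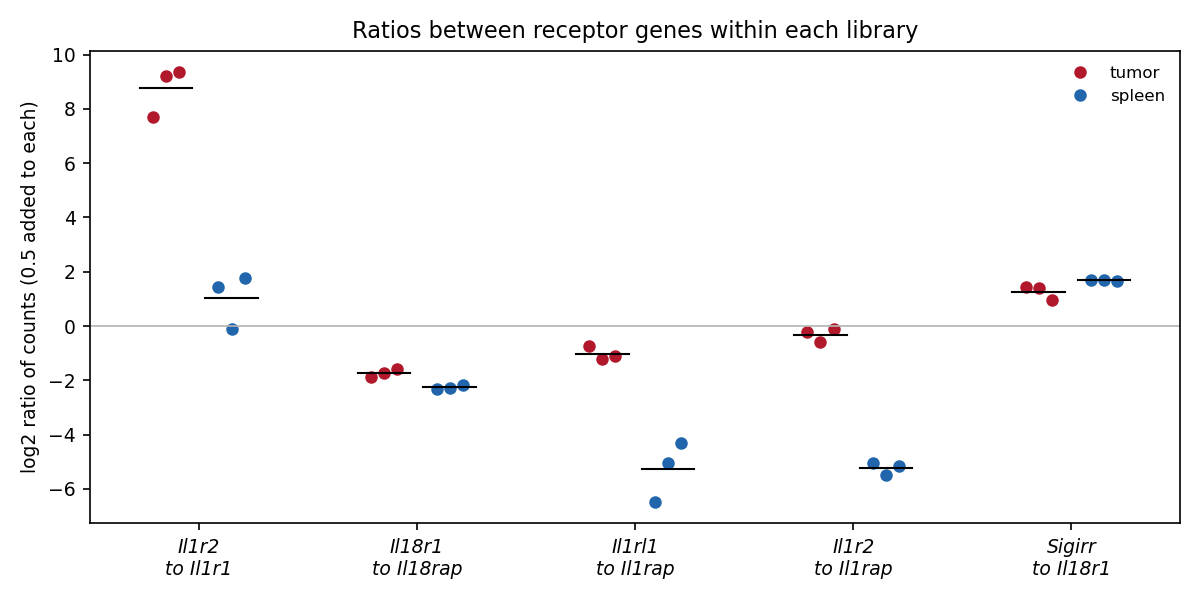
Log2 ratio of counts between receptor genes in each library, 0.5 added to each count, 3 tumor libraries in red and 3 spleen libraries in blue, with means as black bars. The ratios that involve Il1r2 or Il1rl1 are 4.27 to 7.72 higher in tumor, and the other 2 differ by 0.53 and -0.43.

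Of the 7 members, 5 lie in a cluster on chromosome 1 together with Il1rl2, the IL-36 receptor gene. The cluster runs over 478 kb, from 40074079 to 40551705, in the order Il1r2, Il1r1, Il1rl2, Il1rl1, Il18r1, Il18rap, each on the plus strand. Neighbours in this order did not move together: the genes with large rises, Il1r2 and Il1rl1, are separated by Il1r1, which was at 1 count in tumor, and by Il1rl2. The latter was lower in tumor, with 134, 175 and 108 counts in tumor replicates 1, 2 and 3 against 232, 213 and 213 in spleen replicates 1, 2 and 3 (log2 fold change -0.65, SE 0.15, adjusted p = 0.0024). Of the 10 tested genes that reach within 500 kb of the cluster, the kinase gene Map4k4 was lower (-0.42), and Rnf149 (0.34) and the pseudogene Gm5100 (0.81) were higher. Mfsd9 (-0.48, adjusted p = 0.058) and Gm37915 (-0.39, adjusted p = 0.26), which overlap on opposite strands, did not pass. The ion exchanger gene Slc9a4, the next protein-coding gene after Il18rap, had 0 counts in all libraries. Slc9a2 beyond it had 7, 16 and 23 counts in tumor replicates 1, 2 and 3 and 2, 0 and 2 in spleen. Rfx8, on the other side of the cluster, had 8, 15 and 14 counts in tumor and 2, 3 and 1 in spleen. Both were higher in tumor but too low to pass the filter, and were not tested. The remaining family genes Il1rapl1 and Il1rapl2, known from neurons, had at most 1 count in any library.

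**Figure D4:**
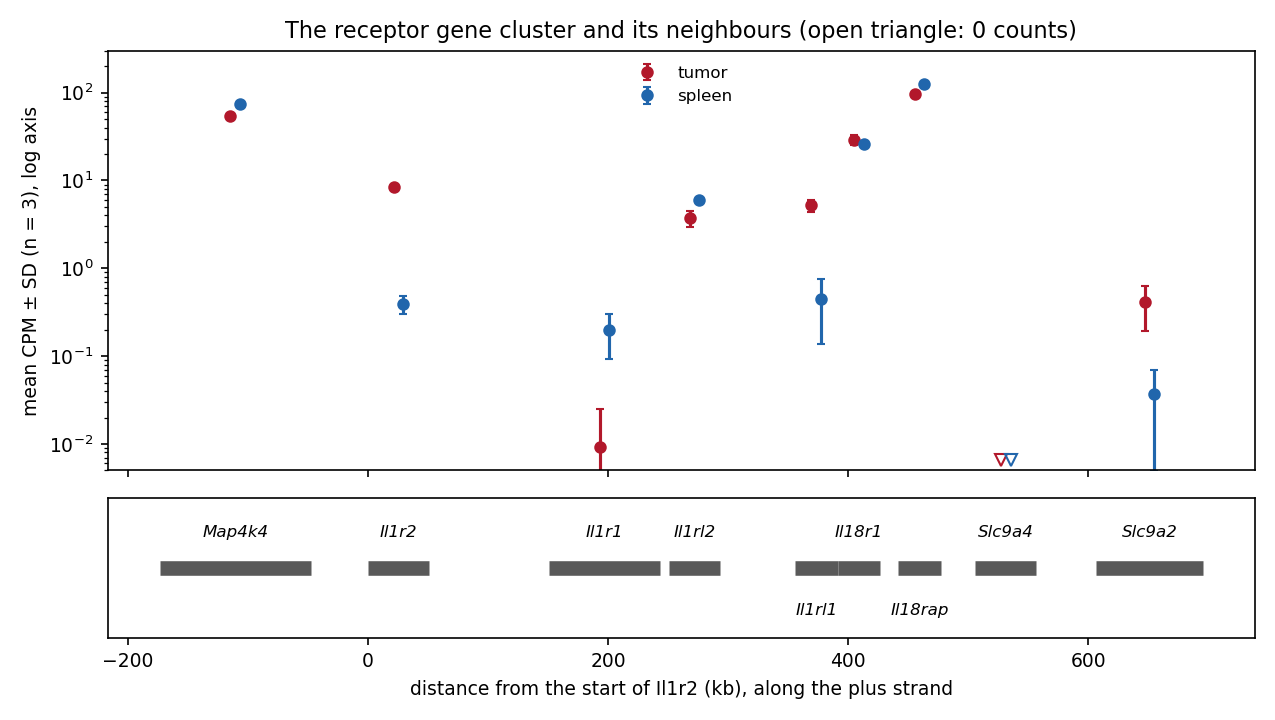
Mean CPM ± SD (n = 3, log axis, lower bars cut off where they reach the axis) of genes along the receptor cluster, tumor in red and spleen in blue, over a map to scale. The horizontal axis is the distance in kb from the start of Il1r2, and open triangles are 0 counts in all libraries. Il1r2 and Il1rl1 are far higher in tumor, with Il1r1 and Il1rl2, both lower, between them.

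Ligands of these receptors had low counts in both tissues. Of the 11 ligand and soluble inhibitor genes, 5 were tested and 4 were lower in tumor (35.9% over all genes), with a median log2 fold change of -1.68 beside -0.02 over all genes tested. Il1a, among these 4, passed the low-count filter only through its spleen counts, so its fall does not count toward a fall of the list. Il18 had 22, 30 and 34 counts in tumor replicates 1, 2 and 3 and 159, 150 and 159 in spleen replicates 1, 2 and 3, all spleen libraries being higher (5.40-fold lower in tumor, log2 fold change -2.43, SE 0.17). Il1b (0.558 ± 0.127 against 1.83 ± 0.216 CPM) and Il1a (0.135 ± 0.0986 against 0.827 ± 0.246 CPM) were lower as well. So was Il18bp, the soluble inhibitor of IL-18 (2.24-fold), though it overlaps the far more counted Numa1 on the other strand. Il1rn, the IL-1 receptor antagonist, averaged 0.975 ± 0.0786 CPM in tumor against 0.754 ± 0.189 CPM in spleen (adjusted p = 0.15). The IL-33 gene Il33 had 1 count over the tumor libraries and 3 over the spleen libraries. Macrophage and monocyte markers, 12 of 12, and 10 of 10 tested genes of the dendritic cell and class II list were lower in the same libraries. The latter summed to 81.5 to 88.2 CPM in tumor and 1785 to 1825 CPM in spleen, and their part in the falls of the ligands was not tested.

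Inflammasome genes, whose products cut IL-1 and IL-18 to their active forms, were lower for 9 of 11 tested and higher for 2, beside 35.9% lower and 34.8% higher over all genes. Casp1, the protease that makes the cut, was 1.62-fold lower in tumor, at 22.6 ± 4.57 against 37.4 ± 1.84 CPM. The adaptor gene Pycard (74.1 ± 2.54 against 153 ± 4.05 CPM), Casp8 (94.1 ± 7.62 against 148 ± 3.90 CPM) and the pore-forming Gsdmd (48.6 ± 0.666 against 71.2 ± 0.605 CPM) fell as well. Sensors such as Nlrp3 (-2.35 on the log2 scale) and Nlrc4 (-2.88) were lower at under 2 CPM. Nlrp3, Nlrc4, Nlrp1a, Nlrp1b and Mefv passed the low-count filter only through their spleen counts. Passing that way requires a low tumor value, so their falls do not count toward a fall of the list. With at least 1 CPM required in 3 libraries, 5 genes were lower, Nlrc4 again tested through its spleen counts alone. Macrophage (12 of 12), neutrophil (10 of 10 tested) and dendritic cell markers (10 of 10 tested) were lower in the same libraries, and their part in these falls was not tested. The 2 higher genes were Casp4, the caspase that senses lipopolysaccharide (2.02-fold), and Aim2, a sensor of DNA in the cytosol (1.68-fold). Nlrp1a and Nlrp1b are closely related copies, and their separate counts are uncertain. Pycard overlaps Gm45205 on the other strand, which was also counted.

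Of the signalling genes just below the receptors, 8 of 16 tested were lower and 3 higher, with a median log2 fold change of -0.18. These 11 calls among 16 are near the 70.7% over all genes. The falls with the smallest p were in Ikbkb, which encodes the kinase IKK-beta (2.08-fold), Irak4 (1.70-fold) and the adaptor Myd88 (1.49-fold). The 3 higher genes were the kinase gene Map3k8 (1.38-fold) and the ubiquitin-conjugating genes Ube2n (1.31-fold) and Ube2v1 (1.15-fold), and none of these 11 reached a call against a 2-fold null. Traf6 averaged 54.6 ± 1.24 CPM in tumor against 57.5 ± 2.02 CPM in spleen (adjusted p = 0.51), and Irak1 146 ± 4.51 against 159 ± 1.85 CPM (adjusted p = 0.15). Without spleen replicate 1, or without spleen replicate 2, 5 genes were lower. Myd88 and Irak4 overlap expressed genes on the other strand (Acaa1a and Twf1). Whether the counting used strand is not stated, so such pairs are uncertain.

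Of 9 tested negative regulators, 2 were higher and 5 lower, and 7 calls among 9 is near the 70.7% of all genes. Tnfaip3, which encodes the ubiquitin-editing enzyme A20 and is itself an NF-kB target, reached 265 ± 16.2 CPM in tumor against 59.1 ± 2.23 CPM in spleen (a 4.58-fold rise with adjusted p = 3.2e-10). Otud7b rose 1.39-fold. Irak3, an inhibitory IRAK found mainly in myeloid cells, fell 4.96-fold (0.998 ± 0.382 against 5.04 ± 0.325 CPM). Cyld (1.36-fold) and Tnip1 (1.30-fold) were lower by less. Nfkbia, the NF-kB inhibitor, averaged 147 ± 6.80 CPM in tumor against 163 ± 1.95 CPM in spleen (adjusted p = 0.091, not called). Irak3 overlaps Tmbim4 on the other strand. The myeloid markers given above were lower in the same libraries, and their part in the fall of Irak3 was not tested.

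**Figure D5:**
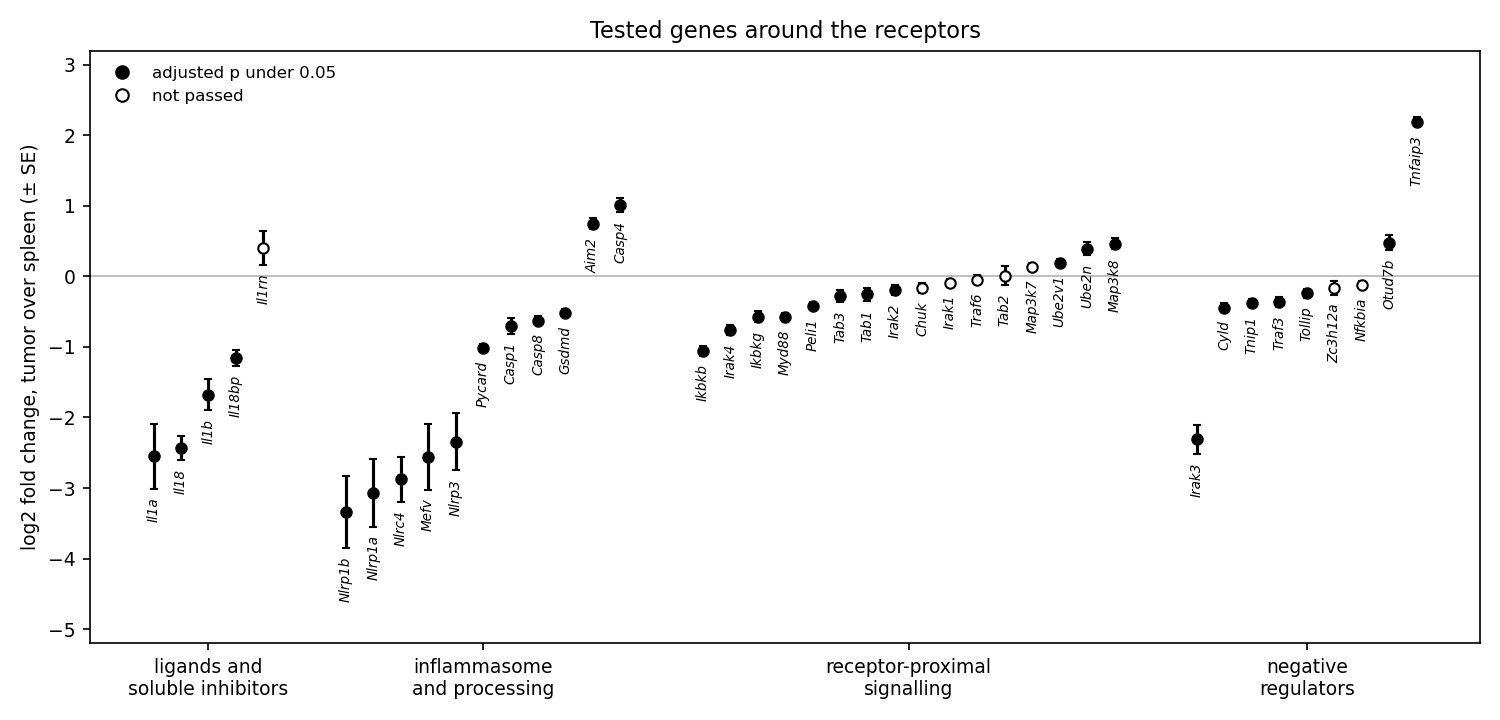
Log2 fold change, tumor over spleen, ± SE of the tested genes in 4 lists around the receptors. Filled dots passed the test and open dots did not. Ligands and inflammasome genes lie mostly below 0, and Tnfaip3, 4.58-fold higher, is the highest point. Some of the ligand and inflammasome genes, such as Il1a and Nlrp3, were tested only through their spleen counts.

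Regulatory T cells also carry Il1r2 and Il1rl1, and ILC2 and type 2 T cells carry Il1rl1. Of 7 tested markers of regulatory and CD4 T cells, 4 were higher and 2 lower in tumor, and the list of 8 summed to 165 to 183 CPM in tumor and 83.1 to 84.4 CPM in spleen. Over all genes tested, 34.8% were called higher and 35.9% lower. Ctla4, also made by activated CD8+ T cells, had the highest level in tumor (102 ± 12.5 CPM), and Zbtb7b in spleen (32.7 ± 0.534 CPM). Foxp3, which defines regulatory T cells, averaged 9.97 ± 1.36 CPM in tumor against 10.3 ± 0.332 CPM in spleen (adjusted p = 0.865). Foxp3 overlaps genes on the other strand, among them Ppp1r3f and Ccdc22, with up to 1220 counts in a library, so its level is uncertain. Cd4 was lower in tumor, at 1.07 ± 0.293 against 7.52 ± 0.753 CPM. Lrrc32, the surface anchor of latent TGF-beta, rose with Il1r2, from 0.730 ± 0.364 to 19.8 ± 2.2 CPM (27.5-fold), and was named after its values were seen. In the ILC2 and type 2 list, 2 of 6 tested were higher (Arg1 and Il13) and 4 lower, among them Il9r, Ptgdr2 and Gata3. Gata3 (73.4 ± 3.06 against 138 ± 7.03 CPM) was the member with the highest level in both tissues. Il13, a type 2 cytokine gene likewise named after its values were seen, had 18, 30 and 44 counts in tumor and 0 counts in spleen. This is at least 30.2-fold higher against 3 counts over the spleen libraries. Il13 passed the low-count filter only through its tumor counts, so its rise does not count toward a rise of the list. Whether other cells contributed to the rises of Il1r2 and Il1rl1 was not tested.

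Genes with the most similar profile over the 6 libraries were sought among 9384 tested genes with a mean of at least 5 CPM. Genes without a symbol, Gm and Rik gene models, pseudogenes and T cell receptor or immunoglobulin segments were left out. The measure was the root mean square difference of centred log2 CPM, with 0.1 CPM added. For Il1r2 these were Mt1, a metallothionein gene (difference 0.11, 104 ± 3.99 CPM in tumor and 5.63 ± 0.643 CPM in spleen), Nrn1 (0.13) and Havcr2, the TIM-3 gene (0.18). For Il18r1 they were Thumpd1 (0.028), Arhgap18 (0.033) and Atp5l (0.044). For Il18rap they were Aqr (0.015), Sdr39u1 (0.020) and Osbpl2 (0.020). The measure uses only the 6 libraries of these 2 tissues.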

How the data were processed

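The authors deposited raw counts of single 50-base reads for each gene, as whole numbers. Per the submitters' processing notes, featureCounts, STAR 2.3, bcl2fastq 2.20.0.422 and the mm10 build were used. Which annotation and strand setting they used, and how reads of several matches were handled, is not stated in those sources. Symbols, positions and exon lengths came from GENCODE release M21, which 54587 of the 55335 identifiers matched with their version number.

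Libraries were grouped by title. Pairs of libraries differed by more than counting noise (chi-square per degree of freedom 2.11 to 3.3 in spleen and 8.38 to 30.4 in tumor), so each counted as 1 replicate. The labels do not say that libraries came from separate mice, so a p-value reflects the spread of these samples alone, possibly technical. Tumor and spleen libraries that share a number had deviations correlated at -0.00079, 0.016 and 0.0024, so the number was used only as an alternative.

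All genes were fitted with edgeR 4.0.16 (R 4.3.3), using TMM scaling, the quasi-likelihood F-test and a low-count filter (filterByExpr with minimum count 10 and minimum total 15). The p-values were adjusted by Benjamini-Hochberg at 0.05. Fold changes are tumor over spleen. SE is the absolute log2 fold change over the square root of F. CPM divides a count by the library total. Ratios between members used an exact permutation test (SciPy 1.17.1). The procedure was tested on simulated counts, where of 50 genes changed by 1 on the log2 scale 98% were recovered among 19648 tested. Of 50 genes changed by 0.5, 66% were recovered, so changes as small as that of Il18r1 can be missed. The simulation drew changed genes only from those above a minimum mean count, so recovery of genes with fewer counts was not measured. It gave every gene and both tissues the same spread beyond counting noise, whereas the tumor libraries differed more among themselves than the spleen libraries. Alternatives used DESeq2 1.42.0 and limma-voom 3.58.1, other scalings and filters, a 2-fold null and left-out libraries.

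The members and gene lists were chosen with earlier results of these data known. All members, the 3 genes of each pathway list with the smallest p in each direction, the tested neighbours of the cluster and the 3 most similar profiles were named by rule. For other cell types the rule takes from every list its highest gene by CPM, per tissue. These were Cd79b and Cd79a (B cell), Csf1r and Lyz2 (macrophage), Csf3r and S100a9 (neutrophil) and Itgax and Cd74 (dendritic cell), in tumor and spleen. In both tissues they were Kit (mast cell), Gata3 (ILC2), Cd160 (NK) and Pecam1 (stromal and endothelial), and for melanoma Gpnmb in tumor and Pmel in spleen. NK markers were higher for 4 of 9 tested and lower for 2, stromal and endothelial markers higher for 1 of 4 and lower for 2, and melanoma markers higher for 2 of 5 and lower for 1. Over all genes tested, 34.8% were called higher and 35.9% lower. Il36a, Il36b, Il36g and Il36rn were read under their older symbols. Other genes were named after their values were seen.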

Additional observations from a re-analysis of the deposited data

How the results depend on the processing

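Il1r2 and Il1rl1 kept their direction and call in all 16 alternative fits. Il1rap and Il18rap kept theirs in 15 of 16, the exception being the 2-fold null, against which Il1rap (-0.49), Il18rap (-0.34) and Sigirr (-0.24) were not called. Sigirr also lost its call with the spleen libraries summed (-0.25), an alternative chosen after seeing the data in which the lone sample is assumed to vary like the tumor libraries. Il18r1 gained a call without the filter on low counts (0.20, adjusted p = 0.045). Leaving out 1 library at a time gave log2 fold changes of 4.25 to 4.57 for Il1r2, 3.19 to 4.21 for Il1rl1, 0.10 to 0.27 for Il18r1 (called without tumor replicate 1), -0.58 to -0.43 for Il1rap, -0.35 to -0.32 for Il18rap and -0.28 to -0.17 for Sigirr. Across all genes, 6890 were higher and 7093 lower, and 1161 and 1864 against a 2-fold null, which asks for more. Inflammasome genes lower in tumor fell from 9 to 5 with at least 1 CPM required in 3 libraries, which tests fewer genes. Lower genes in receptor-proximal signalling numbered 5 to 8 over the left-out libraries, and 5 lower and 1 higher with the spleen libraries summed. The replicate block, which pairs libraries only by number, changed no member's call (Il1r2 4.44, Il1rl1 3.58, Il18r1 0.18 with adjusted p = 0.055) and gave 6746 higher and 7026 lower genes. The 5 ratios kept their direction with a pseudocount of 1 and with each library left out. Depth limits Il1r1 most, with 23 counts over all libraries, and then the spleen values of Il1r2 and Il1rl1.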
